A study of Cavia porcellus with 12 samples.

Results

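The genes described here encode the enzymes that turn plasminogen into plasmin, the receptor and inhibitors that act on these enzymes, and the 2 cell-surface proteins that start and restrain blood clotting. They are *PLAU*, *PLAT*, *PLAUR*, *SERPINE2*, *SERPINF2*, *F3* and *THBD*. These 7 genes were chosen by their function, and all 7 were among the 11896 human orthologue symbols of the deposited expression table. They were compared between the livers of 6 guinea pigs with NASH and 6 controls. All animals were female guinea pigs of the Dunkin Hartley strain, of one starting age and from one breeder, and stayed on their diet for 25 weeks. Controls received chow and were picked at random among animals free of NASH and fibrosis. Animals with NASH received a diet rich in fat, sucrose and cholesterol and were chosen because their livers had bridging fibrosis, so that diet and disease cannot be told apart. One library of polyadenylated RNA was read per animal, from the left lateral lobe of a liver that had not been perfused. The animals keep their numbers from the study here. Controls are animals 5, 10, 31, 32, 45 and 56, and NASH comprises animals 2, 9, 11, 20, 41 and 65.

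Plasmin dissolves fibrin and takes part in the breakdown of extracellular matrix. It is cut from plasminogen, a protein that hepatocytes release into the blood, by urokinase (*PLAU*) or by tissue plasminogen activator (*PLAT*), and the urokinase receptor (*PLAUR*) holds urokinase at the surface of cells. Serpins block the system at several levels, among them protease nexin-1 (*SERPINE2*) at the activators and α2-antiplasmin (*SERPINF2*), a hepatocyte product, at plasmin itself. Tissue factor (*F3*) starts coagulation by binding factor VII, and thrombomodulin (*THBD*), found on endothelial cells, binds thrombin and turns it towards the activation of protein C.

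Each library held from 16980274 to 33091460 counts. Levels are given as CPM, the counts of a gene relative to the size of the library after scaling with the TMM factors of edgeR. These factors ranged from 0.804 to 0.875 for controls and from 1.12 to 1.24 for NASH. By edgeR's quasi-likelihood test, 6411 of the 11896 symbols (53.9%) had a Benjamini-Hochberg adjusted p-value under 0.05, 3318 (27.9%) higher and 3093 (26.0%) lower in NASH. When libraries were scaled by their size only, the median log2 fold change over all symbols was 0.48 rather than 0.0018, and 7603 symbols were higher and 911 lower. Differences of the genes below are therefore differences relative to the bulk of the transcriptome.

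*F3* reached the 200 counts that the table of symbols required only through NASH, with 57 counts in controls and 220 in NASH, and would have had about 157 counts at the level of controls, so it is left out of the counts in this paragraph. The 6 other genes all passed the threshold, 5 of them higher in NASH, where 27.9% of all symbols were, and *SERPINF2* lower, where 26.0% were. Their median log2 fold change was 0.83. In 4 genes (*PLAU*, *PLAT*, *PLAUR* and *THBD*) all animals with NASH lay above all controls, which held for 18.4% of all symbols. *SERPINF2* was lower in every animal with NASH than in every control, as were 15.3% of all symbols, and *SERPINE2* overlapped between the groups. In whole liver, a change in the number of cells that express a gene cannot be told apart from a change in the RNA per cell.

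**Figure D1:**
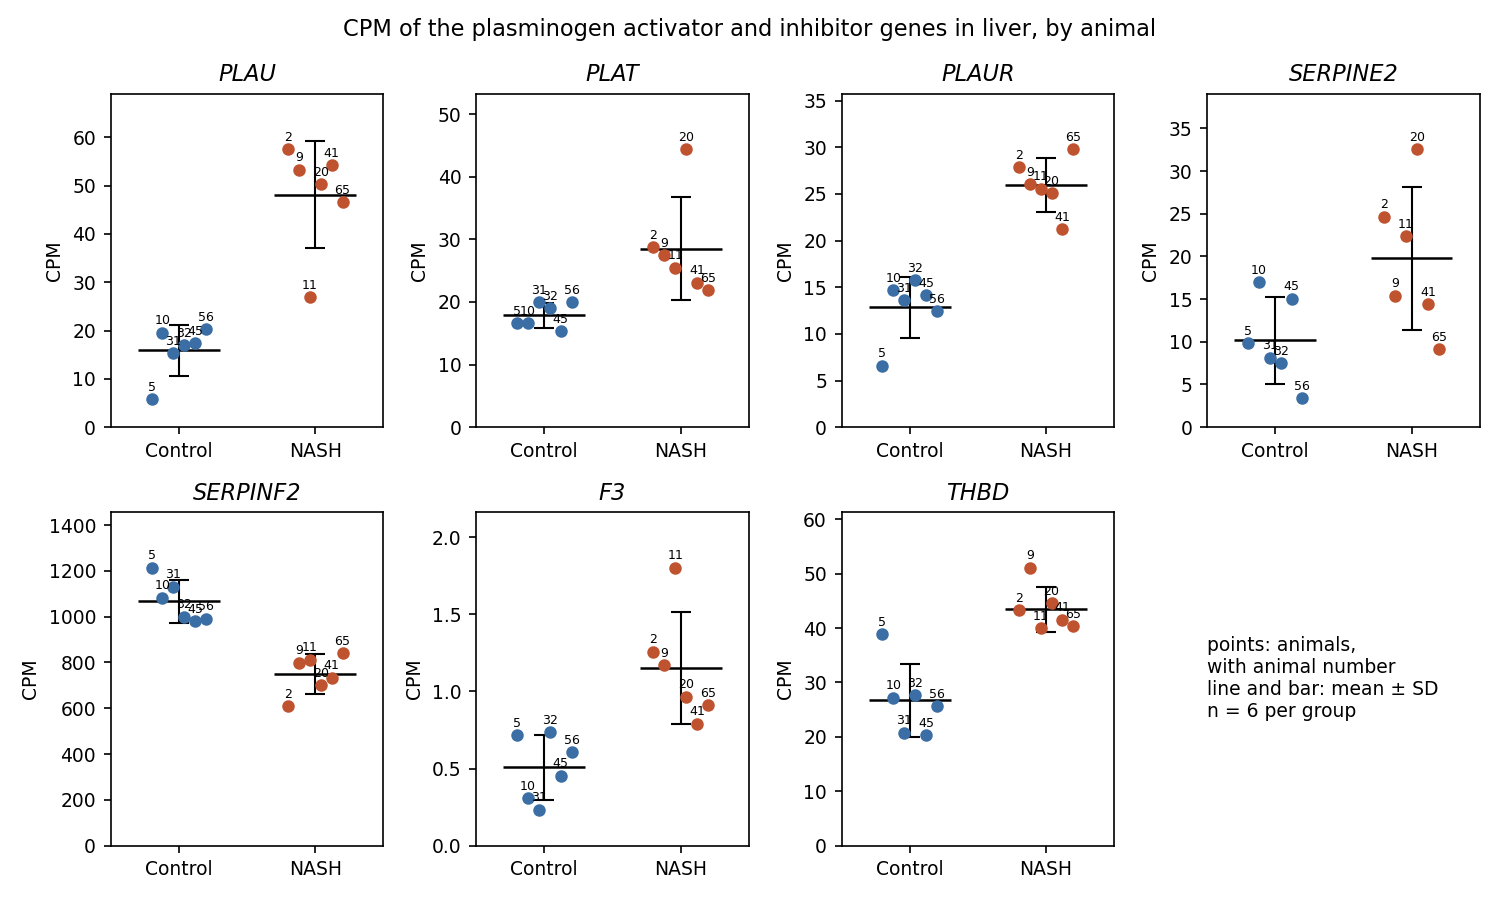
CPM of each gene by animal (vertical axis, linear from 0; a panel per gene, controls in blue and NASH in orange), with the animal number at each point and the mean and SD of each group (n = 6). Only *SERPINE2* overlaps between the groups, *SERPINF2* is the one gene that is lower in NASH, and control 5 lies apart in *PLAU* (5.86 CPM) and *PLAUR* (6.57 CPM).

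Of the activators, *PLAU* had the largest fold change. Its level was lowest in control 5, at 5.86 CPM, with a median of 17.2 and a highest value of 20.3 CPM in controls. In NASH, the lowest value was 26.9 CPM in animal 11, the median was 51.8 and the highest value was 57.5 CPM. Control 5 and animal 11 were thus the low animals of their groups, and the groups did not overlap. The mean rose from 15.9 ± 5.23 to 48.1 ± 11.03 CPM (SD, n = 6 per group), a 3.02-fold rise (log2 fold change 1.59, SE 0.26, edgeR adjusted p = 0.000233). A larger log2 fold change was found in 7.25% of all symbols. Without control 5, the log2 fold change was 1.43, the lowest value with any animal left out.

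*PLAT* changed less. Controls lay close together, between 15.3 and 19.99 CPM with a median of 17.8, whereas NASH extended from 21.9 to 44.4 CPM with a median of 26.5. Animal 20 held the highest value, and the next animal with NASH was at 28.7 CPM. The mean rose from 17.9 ± 2.0 to 28.5 ± 8.21 CPM (SD, n = 6 per group), equal to a log2 change of 0.67 (SE 0.16, edgeR adjusted p = 0.00314) or 1.59-fold. Without animal 20 the log2 fold change was 0.50, and it remained past the threshold (adjusted p at most 0.00856 from edgeR with any animal left out). In read counts within each library, which need no scaling between animals, *PLAU* rose relative to *PLAT* by 1.02 on the log2 scale (two-sided exact permutation test, p = 0.0130, adjusted p = 0.0260 over the 4 pairs of genes compared). The log2 ratio ranged from −1.49 to 0.23 among controls and from 0.079 to 1.23 among animals with NASH, so that the ranges overlapped, with animals 11 and 20 at the low end of NASH. The adjusted p-value reached 0.0519 when animal 41 was left out.

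*PLAUR*, the receptor, was at 6.57 CPM in control 5, with a median of 13.9 and a highest value of 15.7 CPM in controls. In NASH its values ran from 21.2 CPM in animal 41 to 29.8 CPM in animal 65, with a median of 25.8. The low control was the same animal as in *PLAU*. The mean rose from 12.9 ± 3.27 to 25.9 ± 2.90 CPM (SD, n = 6 per group), equal to a log2 change of 1.01 (SE 0.17, edgeR adjusted p = 0.000273) or 2.01-fold, and the log2 fold change was 0.88 without control 5. The count row of *PLAUR* also carries the symbol *CADM4*, an adhesion molecule whose gene neighbours *PLAUR* in the human genome, so the share of each gene in these counts is unknown. The 6 other genes each had a row of their own.

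The log2 ratio of counts on the *PLAUR* row, shared with *CADM4*, to those of *PLAU* fell from a mean of −0.26 ± 0.29 to −0.86 ± 0.45 (SD, n = 6 per group), a difference of −0.60 (two-sided exact permutation test, p = 0.0281, adjusted p = 0.0375 over 4 pairs). Animal 11, the low animal for *PLAU*, had a ratio of −0.076, inside the range of controls, as was animal 65 at −0.64. This difference is near the threshold, since with control 5, 31, 32 or 45 or with NASH animal 2, 9, 20 or 41 left out the adjusted p-value was above 0.05, and it reached 0.0664 without control 5 or animal 41.

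*SERPINE2* was the most variable gene of the group. Its controls ran from 3.37 CPM in animal 56 to 16.97 CPM in animal 10, with a median of 9.005, and NASH from 9.17 CPM in animal 65 to 32.6 CPM in animal 20, with a median of 18.9. Controls 5, 10 and 45 were above the lowest animal with NASH. The mean was 10.2 ± 5.05 CPM in controls and 19.8 ± 8.42 CPM in NASH (SD, n = 6 per group), equal to a log2 change of 0.95 (SE 0.37, edgeR adjusted p = 0.0441). The coefficient of variation was 49.8% in controls and 42.6% in NASH, against 7.0% and 3.97% that counting error alone gives at these depths. Its call was lost with several animals left out. Without control 5, 31, 32 or 56, or without NASH animal 2, 11 or 20, the adjusted p-value of edgeR was above 0.05 and reached 0.107, while its log2 fold change ran from 0.75 to 1.16 with any animal left out.

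*SERPINF2* had the most reads of the group, between 14718 and 28762 per library, and varied least among controls, with a coefficient of variation of 8.80%. Its controls ran from 979.7 to 1214 CPM around a median of 1041, and animals with NASH from 611 to 841 CPM around a median of 766. Animal 2 was the lowest, and the groups did not overlap. The mean went from 1066 ± 93.8 to 749.8 ± 85.5 CPM (SD, n = 6 per group), a fall by 0.51 on the log2 scale (SE 0.09, edgeR adjusted p = 0.000497). With library size alone the log2 fold change was −0.036 (adjusted p = 0.686 from edgeR), as against a median of 0.48 over all symbols under that scaling, so that its fall holds relative to other genes. The read ratio of *SERPINE2* to *SERPINF2* rose by 1.53 on the log2 scale (two-sided exact permutation test, p = 0.0108, adjusted p = 0.0260 over 4 pairs). The ratio ranged from −8.19 to −5.99 among controls and from −6.52 to −4.43 among animals with NASH, with animal 65 alone inside the range of controls, and the adjusted p-value was 0.0519 without animal 41.

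**Figure D2:**
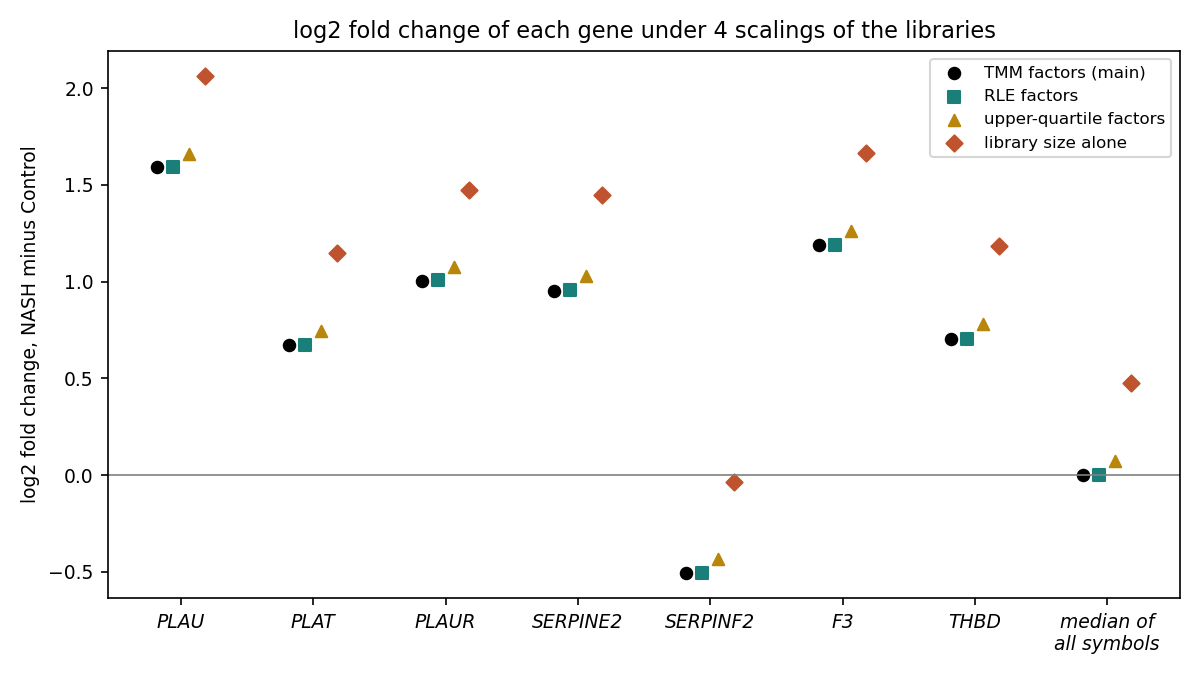
log2 fold change (NASH minus Control, vertical axis) of each gene and the median over all 11896 symbols (horizontal axis) with 4 ways of scaling the libraries, one symbol each. Library size alone lifts every gene by a like amount and takes *SERPINF2* to −0.036, while the other 3 scalings nearly coincide.

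Among the clotting genes, *F3* was close to the limit of detection, and it reached the required 200 counts only through NASH, as stated above. Controls had 5 to 16 reads of it, and animals with NASH 26 to 55. In CPM, controls had a lowest value of 0.233, a median of 0.529 and a highest value of 0.734, and NASH had a lowest value of 0.791, a median of 1.07 and a highest value of 1.80. The highest control, animal 32, lay just under the lowest animal with NASH, animal 41. The mean rose from 0.508 ± 0.211 to 1.15 ± 0.363 CPM (SD, n = 6 per group), equal to a log2 change of 1.19 (SE 0.31, edgeR adjusted p = 0.00618). Counting error alone gives a coefficient of variation of 32.4% in controls, against 41.5% observed, so that the spread between controls was not far above it. When every row with at least 1 count was fitted, the log2 fold change was 1.27 (edgeR adjusted p = 0.00513). This fit does not undo the selection of *F3* through NASH, and no p-value of *F3* given here is free of it. In the deposited rlog values, which shrink differences of rarely read genes, the difference was 0.16 (adjusted p = 0.00883 from limma).

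*THBD* rose from 26.8 ± 6.74 to 43.5 ± 4.14 CPM (SD, n = 6 per group), equal to a log2 change of 0.70 (SE 0.14, edgeR adjusted p = 0.00106) or 1.63-fold. The lowest control was at 20.3 CPM, the median at 26.4 and the highest, animal 5, at 38.9 CPM. In NASH the lowest value was 40.0 CPM, the median 42.4 and the highest 51.1 CPM. Control 5, low in *PLAU* and *PLAUR*, was thus the high control for *THBD* and reached almost the level of NASH, and the log2 fold change was 0.84 without it. The read ratio of *F3* to *THBD* was 0.45 higher in NASH on the log2 scale, within the spread between animals (two-sided exact permutation test, p = 0.160, adjusted p = 0.160 over 4 pairs). With a count of 2 added in place of 0.5 the difference was 0.29 (adjusted p = 0.275, exact permutation test), and it ran from 0.29 to 0.56 with any animal left out. Controls ranged from −6.35 to −5.20 and animals with NASH from −5.69 to −4.46.

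Of 40 further genes of plasminogen activation, fibrinolysis and the thrombin and protein C pathways, listed by function, 33 were measured. By edgeR's test 7 were higher in NASH, where 27.9% of all symbols were, 19 were lower, where 26.0% were, and 7 others did not pass the threshold. The median log2 fold change was −0.38, against 0.0018 over all symbols. With library size alone 10 were higher and 10 lower, where 7603 and 911 of all 11896 symbols were. The counts of the lists below are to be read against the same 27.9% and 26.0%.

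*PLG*, the substrate of both activators, fell from 3949 ± 145 to 2478 ± 293 CPM (SD, n = 6 per group), equal to a log2 change of −0.67 (SE 0.09, edgeR adjusted p = 3.59e-05). Controls lay between 3734 and 4122 CPM and animals with NASH between 2090.2 and 2941 CPM, without overlap. In its list of receptors and other activating enzymes, 3 of 9 genes were higher, a share near that of all symbols, and 5 lower. *MRC2*, a collagen receptor that binds the urokinase receptor, rose from 0.737 ± 0.416 to 10.7 ± 3.61 CPM (SD, n = 6 per group), equal to a log2 change of 3.84 (SE 0.35, edgeR adjusted p = 2.14e-06). The integrin subunit *ITGAM*, found on myeloid cells, rose by 1.85 (adjusted p = 0.00495 from edgeR). Both genes had few reads in controls, 3 to 31 for *MRC2* and 0 to 41 for *ITGAM*, so the size of their rise is uncertain. *KLKB1*, plasma prekallikrein, fell by 1.48 on the log2 scale (adjusted p = 1.39e-05 from edgeR). *LRP1*, the hepatocyte receptor that clears activators bound to their inhibitors, was at 1087 ± 85.6 and 1055 ± 200.1 CPM (SD, n = 6 per group), equal to a log2 change of −0.044 (adjusted p = 0.780 from edgeR). *ANXA2* and *S100A10* were not analysed here.

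*CPB2*, a liver carboxypeptidase that protects fibrin once thrombin bound to thrombomodulin has activated it, fell by 1.06 on the log2 scale (adjusted p = 1.96e-05 from edgeR). *SERPING1*, the C1 inhibitor, fell by 0.37 (adjusted p = 0.0135 from edgeR). In the list of further inhibitors these were the 2 of 5 measured genes that passed the threshold. *TFPI2*, which also inhibits plasmin, was placed in the tissue factor list below. *SERPINB2*, another inhibitor of urokinase, had 0 to 91 counts per library and a log2 fold change of 0.074 with an SE of 0.95 (adjusted p = 0.954 from edgeR). The highest value was that of a control, at 4.67 CPM, while the medians were 0.259 CPM in controls and 0.989 CPM in NASH.

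Of the 6 fibrin and matrix partners measured, 5 were lower and 1 was higher. *THBS1*, thrombospondin-1, rose from 10.004 ± 2.91 to 166.5 ± 33.5 CPM (SD, n = 6 per group), equal to a log2 change of 4.06 (SE 0.21, edgeR adjusted p = 6.86e-08). The vitronectin gene *VTN*, an adhesive protein of plasma and matrix, fell by 0.73 on the log2 scale (adjusted p = 0.000151 from edgeR), and *HRG*, a plasminogen-binding plasma protein, by 0.93 (adjusted p = 3.80e-05 from edgeR). The fibrinogen chains *FGA*, *FGB* and *FGG* fell by 0.55, 0.52 and 0.54 on the log2 scale.

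In the tissue factor and thrombin list 3 of 11 genes were higher, again close to the share of all symbols, and 5 lower. The hepatocyte products *F2* (prothrombin), *F7* and *SERPIND1* (heparin cofactor II) fell by 0.90, 0.66 and 1.24 on the log2 scale (adjusted p = 5.77e-05, 0.00666 and 2.17e-06 from edgeR). The protease-activated receptor *F2RL1*, which responds to the complex of tissue factor and factor VII, rose by 1.81 (SE 0.19, edgeR adjusted p = 6.16e-06). *TFPI2*, a matrix-bound inhibitor of plasmin and of the tissue factor complex, rose from 4.92 ± 2.74 to 22.1 ± 4.96 CPM (SD, n = 6 per group), equal to a log2 change of 2.15 (adjusted p = 5.27e-05 from edgeR). Protein C (*PROC*), which thrombomodulin helps to activate, fell by 0.81 on the log2 scale (adjusted p = 8.48e-06 from edgeR), and its cofactor *PROS1* by 0.59. *TFPI* and *PROCR* were not analysed here.

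**Figure D3:**
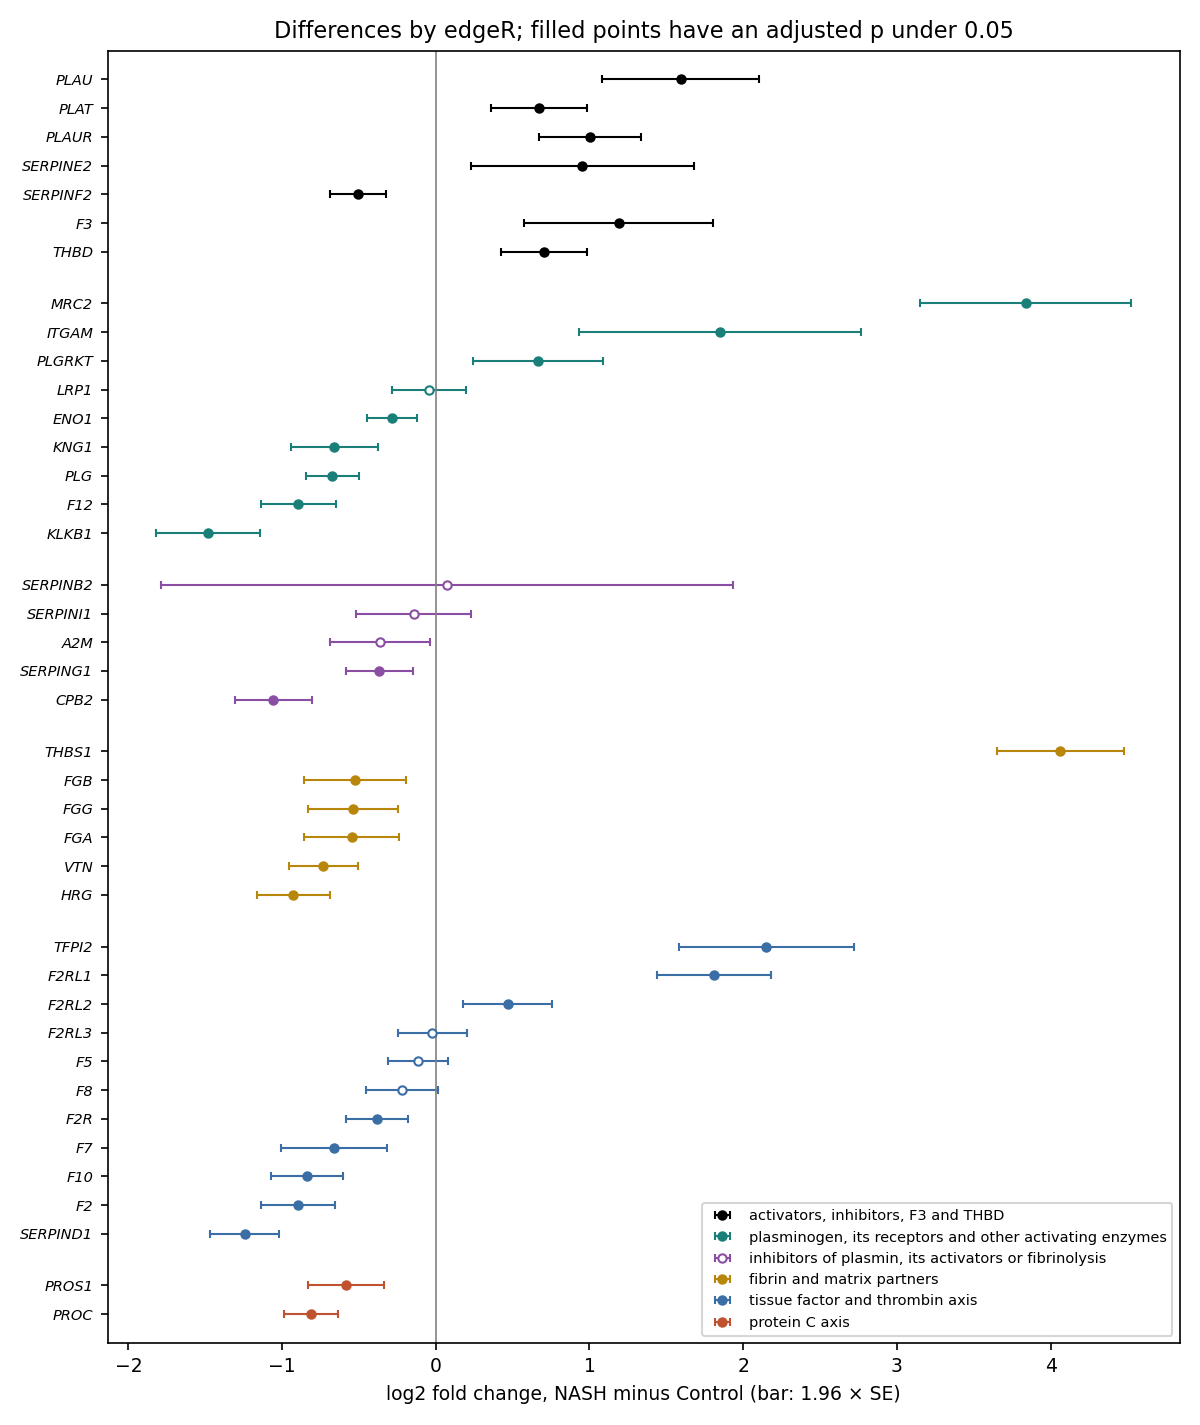
log2 fold change (NASH minus Control, horizontal axis) of the 7 genes in black and of the 33 further genes by functional list in colours, with bars of 95% confidence intervals from the SE and filled points for an adjusted p-value of edgeR under 0.05. *THBS1* (4.06) and *MRC2* (3.84) lie furthest to the right, and plasma proteins such as *PLG* (−0.67) and *PROC* (−0.81) lie to the left of 0.

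The genes were also set against markers of cell types they are known from, as the difference between the log2 CPM of the gene and the mean log2 CPM of the markers. The hepatocyte list had 7 of 8 markers measured, 6 of them lower in NASH (median log2 fold change −0.83), and its summed level went from 97267 to 118518 CPM over the controls and from 40202 to 61233 CPM over the animals with NASH. Relative to this list *SERPINF2* was 0.47 higher in NASH (two-sided exact permutation test, p = 0.00216, adjusted p = 0.00758 over the 7 ratios). The unadjusted value is the lowest that 6 against 6 allows. *SERPINF2* thus fell by less than the markers did on average. The markers differed widely, with log2 fold changes from −2.20 for *TTR* to −0.18 for *ASGR1*, and *ASGR1* fell by less than *SERPINF2*.

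Of the macrophage list 7 of 10 markers were measured, with *CD68* and *MSR1* higher, *MARCO* lower and a summed level of 378 to 616 CPM in controls and 583 to 828 CPM in NASH. Relative to it *PLAU* was 1.36 higher (two-sided exact permutation test, p = 0.00216, adjusted p = 0.00758 over 7 ratios) and *PLAUR* 0.76 higher (p = 0.00649, adjusted p = 0.0152 by the same exact test), and in both genes the ratio passed the threshold with any animal left out. Of the neutrophil list 3 of 7 markers were measured, at a summed level of 0.974 to 3.76 CPM in controls and 3.54 to 10.5 CPM in NASH. *S100A8* and *S100A9* reached the required 200 counts only through NASH, as *F3* did, so no count or median of this list is given, and the sums include them. The remaining marker, *CSF3R*, was higher by 1.27 on the log2 scale (adjusted p = 0.0234 from edgeR).

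Of the endothelial list 8 of 10 markers were measured, 3 higher and 1 lower (median log2 fold change 0.19), with summed levels of 469 to 662 CPM in controls and 577 to 846 CPM in NASH. Relative to it *THBD* was 0.46 and *PLAT* 0.36 higher, neither past the threshold (adjusted p = 0.0818 for both, exact permutation test over 7 ratios). Without control 5 both passed it, at 0.65 (adjusted p = 0.00758) and 0.42 (adjusted p = 0.0455, exact permutation test). Without animal 20 the difference of *PLAT* was 0.20 (adjusted p = 0.148, exact permutation test).

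All 10 markers of stellate cells and myofibroblasts were measured, 6 higher and 1 lower, and they summed to 607 to 764 CPM in controls and 1317 to 2560 CPM in NASH. Relative to this list *SERPINE2* differed by −0.14 and *F3* by −0.051 (adjusted p = 0.825 for both, exact permutation test), within the spread between animals. With the summed CPM of the markers in place of their mean log2 CPM these were −0.37 and −0.28 (adjusted p = 0.383 for both, exact permutation test). Cholangiocyte markers rose as well, 5 of 5 measured, from a summed 73.2 to 114.9 CPM in controls to 302 to 539 CPM in NASH. So did 3 of 3 erythroid markers measured, from 57.0 to 171 CPM to 426 to 4524 CPM, in livers that had not been rinsed of blood. Of T cell markers 1 of 6 was higher and 1 lower. Of the platelet list *ITGA2B* alone was measured, on a row shared with *GPATCH8*, and no mesothelial marker was. None of the measured markers was at 0 in every animal, which the 200 counts required of every symbol fixed in advance. The part of these cell types in the differences above was not tested.

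**Figure D4:**
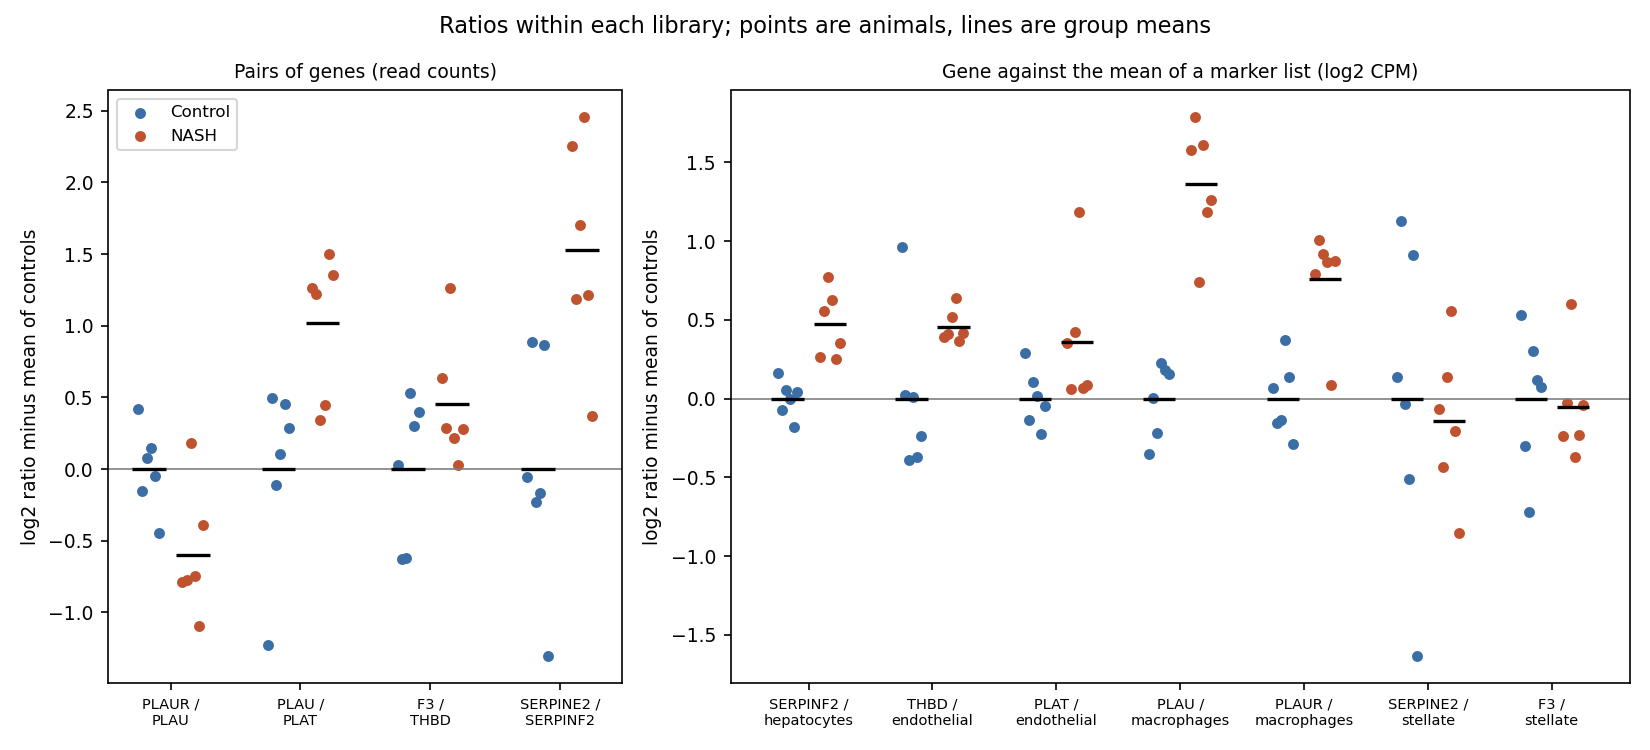
log2 ratios within each library, shown as the difference from the mean of controls (vertical axis), for 4 pairs of genes by read counts (left) and for 7 comparisons of a gene with a marker list by log2 CPM (right), with a point per animal and a line at each group mean. *PLAU* against macrophage markers and *SERPINF2* against hepatocyte markers separate the groups, whereas *SERPINE2* and *F3* against stellate markers overlap between them.

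With the difference between the groups removed by centring the log2 CPM within each group, the gene most like *PLAU* over the 12 animals was *MRPL15* (Pearson's r = 0.95), followed by *NLRP3* and *SASH3* (0.95 and 0.94). For *PLAUR* these were *AARS2*, *ALOX5* and *SMYD5* (0.96, 0.96 and 0.94), for *PLAT* *FANCG*, *COL3A1* and *ZNF423* (0.93, 0.91 and 0.89) and for *THBD* *TWISTNB*, *TMEM39A* and *IPO11* (0.94, 0.92 and 0.90). *SERPINE2* varied most like *WDR89*, *MAT2B* and *MIOS* (0.90, 0.89 and 0.88), *SERPINF2* like *CREG1*, *CTH* and *COL11A1* (0.87, 0.86 and 0.85) and *F3* like *LMOD1*, *CAV1* and a row named *EHHADH.1* (0.90, 0.89 and 0.89). These are the highest of 11896 values per gene over 12 animals and share the libraries and their depth, so they are given as a description. Without control 5, left out after its values were seen, r fell to between 0.80 and 0.86 for the genes named for *PLAU*, between 0.71 and 0.78 for *PLAUR* and between 0.72 and 0.86 for *THBD*.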

How the data were processed

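The authors gave raw counts for each StringTie locus or annotated guinea pig gene (Trimmomatic 0.38.0, HISAT2 2.1.0 on Cavpor3.0 without multimapped reads, StringTie 1.3.6, in the submitters' notes and the paper's methods) and log2 values made by the authors with the rlog transformation of DESeq2 for 11896 human orthologue symbols with at least 200 counts in total. Symbols were matched to their count rows by repeating that transformation until the deposited values were recovered to within 8e-07. This gave 11031 rows, and 1515 symbols shared a row. The 7 genes and all lists were chosen with earlier results of these data known.

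Counts of all 11896 symbols were fitted with edgeR 4.0.16 (R 4.3.3, TMM factors, whole-table library sizes, robust glmQLFit, glmQLFTest) on NASH against Control, and p-values were Benjamini-Hochberg adjusted over all symbols. Log2 CPM used a prior count of 2, and read ratios an added count of 0.5. Ratios were compared with exact permutation tests over the 924 splits and adjusted within their family of 4 or 7. In simulated counts, the procedure was tested before use. Each animal is 1 sample. The counts of 2 animals of a group differed by at least 44.5 times the counting variance. The further genes named were key partners fixed by name, those past the threshold whose log2 fold change was 1 or more in size, and the extremes of each list. *FGA*, *FGB*, *FGG* and the marker genes were named in addition. Alternatives were RLE and upper-quartile factors, library size alone, DESeq2 1.42.0, limma-voom and limma 3.58.1 on rlog values, every row with a count, filterByExpr, another added count or list summary, and each animal left out. Figures used Python 3.11.15 and matplotlib 3.10.9. One gene of these pathways is not reported here.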

Additional observations from a re-analysis of the deposited data

Results flagged for a closer look

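In 9 of the 36 sets of 6 animals examined for the 7 genes and the 11 ratios, 1 animal lay far from the other 5 relative to the range of its group. About 1 set in 20 does so by chance, and several of the 9 share values. Control 5 was the lowest control in *PLAU* (5.86 CPM, next 15.4), in *PLAUR* (6.57 CPM, next 12.5) and in the log2 ratio of *PLAU* to *PLAT* (−1.49, next −0.38), and the highest control in the ratio of *THBD* to endothelial markers (−0.15, next −1.09). Its library was among the smallest, with 17414347 counts, and had the lowest TMM factor, 0.804. Control 5 was also the lowest control in the macrophage markers *CSF1R* (6.86 CPM), *MARCO* (28.6), *MSR1* (10.6), *C1QA* (31.9) and *C1QB* (23.2). It was not the lowest in *CD68* or *CD14*. Of the endothelial markers, it was lowest in *PECAM1*, *CDH5*, *KDR*, *TEK* and *CLEC4G*, but not in *TIE1*, *VWF* or *STAB2*. Relative to macrophage markers its *PLAUR* (−2.20) lay inside the controls and its *PLAU* (−2.36) was lowest, next −2.23. The part of these markers was not tested. Animal 11 was the lowest with NASH in *PLAU* (26.9 CPM, next 46.6) and the highest in the ratio of *F3* to stellate cell markers (−5.42, next −6.05). Animal 20 was the highest with NASH in *PLAT* (44.4 CPM, next 28.7) and in the ratio of *PLAT* to endothelial markers (−0.48, next −1.24). Animal 41 was the lowest with NASH in the ratio of *PLAUR* to macrophage markers (−2.18, next −1.48).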

How the results depend on the processing

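*PLAU*, *PLAUR*, *PLAT* and *THBD* kept their direction and call in all 20 alternatives. So did *F3*, but it was selected through its counts in NASH, so its calls are not free of that selection. Over these alternatives 5838 to 8514 of the 11896 symbols passed the threshold, against 6411 in the main fit. *SERPINF2* lost its call with library size alone (log2 fold change −0.036), where its difference from all symbols stayed alike by construction. *SERPINE2* lost it when every row with at least 1 count was fitted (1.04, adjusted p = 0.0520 from edgeR) and with any of 7 animals left out (0.75 to 0.94), while over all 12 animals left out in turn it ran from 0.75 to 1.16. With an animal left out, the log2 ratio differences ran from −0.76 to −0.50 for *PLAUR* over *PLAU*, 0.78 to 1.16 for *PLAU* over *PLAT* and 1.27 to 1.76 for *SERPINE2* over *SERPINF2*, each losing its call without animal 41, and from 0.38 to 0.65 for *THBD* and 0.20 to 0.42 for *PLAT* over endothelial markers. They changed sign for *SERPINE2* (−0.47 to 0.081) and *F3* (−0.20 to 0.055) over stellate markers, neither of which passed the threshold, and were −0.37 and −0.28 with summed markers. On rlog values *F3* differed by 0.16, where shrinkage lowers differences at few counts. Depth limits *F3*, since 3 counts, the limit that a count of 0 allows, are up to 0.214 CPM in a control. No paired analysis was possible because the labels do not give the body-weight blocks in which animals were randomised, and no animal number occurs in both groups.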

Other observations

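Across the 21 pairs of the 7 genes, Pearson's r of the log2 CPM centred within each group lay between −0.66 (*PLAUR* and *THBD*) and 0.74 (*PLAU* and *PLAUR*) over the 12 animals, given as a description. Both values rest on control 5. Without this animal, left out after its values were seen, r was 0.15 for *PLAUR* and *THBD* and −0.10 for *PLAU* and *PLAUR*. *SERPINE2* and *PLAT* had an r of −0.81 in the 6 controls and of 0.83 in the 6 animals with NASH, a contrast between small groups that was not tested.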
